A study of Mus musculus with 2 samples.

Results

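The Fos, Jun and Egr genes encode transcription factors that neurons switch on within minutes of strong activity. The 10 genes described here are Fos, Fosb, Fosl2, Jun, Junb, Jund, Egr1, Egr2, Egr3 and Egr4, found by symbol among the 30431 genes listed in each of the 2 libraries. They were measured as raw counts of unique molecular identifiers (UMIs, 1 per captured RNA molecule) in single nuclei of the mouse dorsal CA1, the output field of the hippocampus. The study compared the chronic phase of epilepsy with controls, in deep and superficial pyramidal neurons.

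The epilepsy library came from male C57BL/6J mice (genotype Calb1::Cre crossed with Tdtomato) injected with kainate at 5 mg/kg per hour, at 6 to 7 weeks of age, until status epilepticus (continuous seizures, over 30 minutes). Diazepam at 4 mg/kg followed. The control library came from mice of the same sex, strain and transgenes that received vehicle. Both were taken 12 weeks later. The labels name 2 mice per condition and leave unsaid whether a library holds 1 or both. Dorsal CA1 was dissected from 4 slices and 15000 nuclei were loaded per library. Each condition has 1 library, so differences between conditions could not be checked in replicates or tested. Intervals are exact 95% intervals that cover counting error only.

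As background, Fos proteins pair with Jun proteins to form AP-1, a dimer that binds DNA at AP-1 elements. The Egr proteins are zinc-finger factors that bind GC-rich elements. In the hippocampus, calcium entry and MAP kinase signalling act through factors such as CREB, SRF and the ELK proteins, already bound at these genes, so that Fos, Junb, Egr1 and their relatives are transcribed for a short time after firing. Jund is known as the more constitutive Jun gene, and a truncated, stable product of Fosb persists after repeated seizures. Counts per gene do not separate that isoform.

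The sequence just upstream of RefSeq start sites of the genes is shown because it can be searched for the letters of elements that such factors bind. RefSeq windows of 250 bases before the start site, on the GRCm38.p6 build, were used for 8 of the 10 genes. Egr1 and Egr3 were left out of the search, so the counts below say nothing about elements upstream of them. The 8 genes have 12 windows, 5 of them of Egr2, and a gene with several windows has more chances of a match, so shares of genes are counted over any window of a gene. The kinds of element below were searched on both strands. The CRE half-site TGACG, bound by CREB, occurred in windows of 5 genes (Fos, Fosb, Junb, Egr2 and Egr4), against 19.8% of 27025 genes. The EGR element GCGNGGGCG occurred in 2 genes (Fosb and Fosl2), against 5.33% of all genes. The CArG box, bound by SRF, occurred in 1 gene (Egr2), against 1.62% of all genes. The AP-1 element TGANTCA occurred in 0 of the 8 genes and in 7.82% of all genes. The windows of Jun and Jund held none of these elements. The Jund window (chr8:70697489-70697738) ends before, and does not adjoin, the start of the gene in the annotation (70698949). It therefore does not show the sequence next to that start. The Fosl2 window (chr5:32136222-32136471) lies inside the annotated gene, which starts at 32135801. Every Egr2 window with a match also lies inside its gene, which starts at 67535475. The matches of these 2 genes are thus not upstream of their annotated starts. A match of letters is a description and not evidence of binding.

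In the windows below, capitals mark these matches. The Fos window (chr12:85473640-85473889, plus strand) has a CRE half-site beginning 129 bases and another beginning 66 bases before the start site. The Fosb window (chr7:19310046-19310295, minus strand) has a CRE half-site at 60 bases and an EGR element at 50 bases. The Junb window (chr8:84978749-84978998, minus strand) has 1 CRE half-site, at 106 bases. The Egr2 window, 1 of several for that gene (chr10:67537619-67537868, plus strand), has a CRE half-site at 111 bases, a CArG box at 72 bases and a CRE half-site on the opposite strand at 55 bases. No 2 of these matches overlap.
Fos: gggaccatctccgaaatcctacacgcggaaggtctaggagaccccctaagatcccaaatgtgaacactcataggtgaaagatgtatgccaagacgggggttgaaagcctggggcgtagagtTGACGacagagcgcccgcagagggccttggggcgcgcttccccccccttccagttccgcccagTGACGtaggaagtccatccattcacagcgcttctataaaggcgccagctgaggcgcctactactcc
Fosb: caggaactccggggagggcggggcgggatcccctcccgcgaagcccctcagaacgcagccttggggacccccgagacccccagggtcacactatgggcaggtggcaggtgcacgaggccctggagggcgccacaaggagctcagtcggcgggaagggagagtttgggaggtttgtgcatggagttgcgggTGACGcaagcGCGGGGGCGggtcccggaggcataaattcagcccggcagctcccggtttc
Junb: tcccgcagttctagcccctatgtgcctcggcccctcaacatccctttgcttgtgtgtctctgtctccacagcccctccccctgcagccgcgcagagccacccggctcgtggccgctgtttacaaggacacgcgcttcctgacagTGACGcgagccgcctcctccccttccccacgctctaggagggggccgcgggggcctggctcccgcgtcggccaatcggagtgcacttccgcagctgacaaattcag
Egr2: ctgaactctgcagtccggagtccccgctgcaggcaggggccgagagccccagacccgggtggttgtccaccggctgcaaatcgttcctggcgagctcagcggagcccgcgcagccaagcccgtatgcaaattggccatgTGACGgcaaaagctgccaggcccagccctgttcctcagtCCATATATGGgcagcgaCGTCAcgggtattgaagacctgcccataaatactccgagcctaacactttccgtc

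Depth differed between the libraries: 3078 nuclei and 7112131 UMIs in epilepsy, at a median of 2443 UMIs, and 3661 nuclei and 11858162 UMIs in control, at a median of 3447 UMIs. They shared 16 cell barcodes. Nuclei were clustered without the 10 genes and without other activity genes, so the clusters did not use their values. After removal of likely doublets, 2338 epilepsy and 2838 control nuclei were CA1 pyramidal-like, with 5826986 and 9719286 UMIs. Of 11 fixed CA1 pyramidal markers, 10 were higher there than in the remaining nuclei of both libraries. Levels below are counts per 1000000 UMIs of the class (CPM). In the pyramidal-like class, 8 of 9 oligodendrocyte markers were higher in epilepsy (summed level 171 CPM in epilepsy and 118 CPM in control), as were 8 of 9 microglia markers (59.2 and 39.7 CPM) and 10 of 15 interneuron markers (567 and 472 CPM). Astrocyte markers ran the other way in sum (544 CPM in epilepsy and 573 CPM in control), although 6 of 9 were higher in epilepsy. None of the oligodendrocyte or microglia markers was at 0 in either library. The part of these markers in the results below was not tested. Levels and shares of nuclei were also taken with every nucleus thinned to the same number of UMIs.

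In CA1 pyramidal-like nuclei, 9 of the 10 genes had a lower level in the epilepsy library than in the control library. Their summed level was 64.7 CPM (58.3 to 71.6) in epilepsy from 377 UMIs and 129 CPM (122 to 136) in control from 1254 UMIs, a log2 ratio of -1.0 (-1.17 to -0.83). With nuclei thinned to 1000 UMIs it was -0.93 (-1.23 to -0.65). The intervals of the 3 families overlapped, with ratios of -1.12 (-1.55 to -0.70) for Fos genes, -0.89 (-1.12 to -0.66) for Jun genes and -1.12 (-1.44 to -0.81) for Egr genes. Fewer transcribing nuclei and less RNA per nucleus cannot be told apart in such sums. Shares of nuclei, given further on, do not separate them either at so few UMIs per nucleus.

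Among the Fos genes, Fos itself, the classical marker of recently active neurons, had 40 UMIs (6.86 CPM) in epilepsy and 169 UMIs (17.4 CPM) in control pyramidal-like nuclei. It was 2.53-fold lower in epilepsy, with a log2 ratio of -1.34 (-1.88 to -0.84). Fosb, whose truncated isoform accumulates with repeated activity, had 6 UMIs (1.03 CPM) in epilepsy and 24 UMIs (2.47 CPM) in control, and its interval reached 0 (log2 ratio -1.26, -2.84 to 0.07). Fosl2, a later and longer-lived Fos relative, had 15 UMIs (2.57 CPM) in epilepsy and 28 UMIs (2.88 CPM) in control, a log2 ratio of -0.16 whose interval (-1.17 to 0.79) spans 0.

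Among the Jun genes, Junb, an inducible partner of Fos, carried the most UMIs of all 10 genes, with 187 (32.1 CPM) in epilepsy and 605 (62.2 CPM) in control. It was 1.94-fold lower in epilepsy, with a log2 ratio of -0.96 (-1.20 to -0.72). Jun had 4 UMIs (0.69 CPM) in epilepsy and 12 UMIs (1.23 CPM) in control, too few to place its ratio on either side of 0 (-0.85, -2.94 to 0.88). Jund was the only gene of the 10 with a higher level in epilepsy, at 15 UMIs (2.57 CPM) against 18 UMIs (1.85 CPM) in control, and its interval included 0 (log2 ratio 0.48, -0.62 to 1.55).

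Among the Egr genes, Egr1, an activity-induced regulator of plasticity genes, had 53 UMIs (9.10 CPM) in epilepsy and 206 UMIs (21.2 CPM) in control. It was 2.33-fold lower in epilepsy, with a log2 ratio of -1.22 (-1.68 to -0.78). Egr3, an inducible relative of Egr1, had 47 UMIs (8.07 CPM) in epilepsy and 147 UMIs (15.1 CPM) in control, a log2 ratio of -0.91 (-1.41 to -0.42). Egr2 had 3 UMIs in epilepsy and 23 in control, a log2 ratio of -2.20 (-4.58 to -0.47). Egr4 had 7 UMIs in epilepsy and 22 in control, with an interval that included 0 (-0.91, -2.38 to 0.36).

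Of the 10 genes, 4 had at least 50 UMIs over both libraries in this class, and all 4 (Fos, Junb, Egr1 and Egr3) were more than 1.5-fold lower in epilepsy. Of 11076 genes with as many UMIs, 5.01% were past 1.5-fold lower and 8.66% past 1.5-fold higher. The median log2 ratio was -1.09 over the 4 genes and 0.00 over all of those genes. With a minimum of 10 UMIs, which all 10 genes reached, 8 of 10 were past 1.5-fold lower, against 7.74% of 15509 genes, and 0 were past 1.5-fold higher, against 18.9%. The 2 that were not past it were Fosl2 and Jund.

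**Figure D1:**
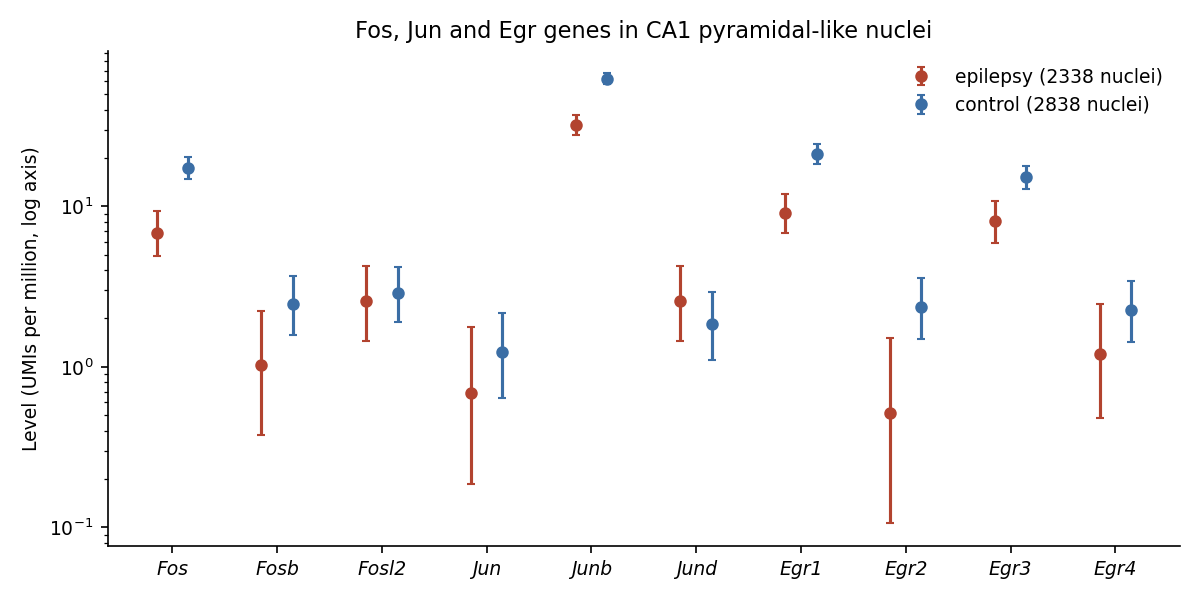
Level of each of the 10 genes in CA1 pyramidal-like nuclei of the epilepsy (red, left) and control (blue, right) libraries, in CPM on a log axis, with exact 95% Poisson intervals. The intervals of the libraries do not overlap for Fos (6.86 and 17.4 CPM), Junb (32.1 and 62.2 CPM), Egr1 (9.10 and 21.2 CPM) and Egr3 (8.07 and 15.1 CPM), and Jund is the only gene with the higher point in epilepsy.

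The lower level went with fewer nuclei in which a UMI of these genes was counted. At 1000 UMIs a nucleus with any such UMI held 1.13 of them on average in epilepsy and 1.19 in control. A share of nuclei thus largely follows the level and is not a separate measure of how many nuclei transcribe the genes. At least 1 of the 10 genes had a UMI in 308 of 2338 epilepsy pyramidal-like nuclei (13.2%, Clopper-Pearson interval 11.8 to 14.6%) and in 743 of 2838 control pyramidal-like nuclei (26.2%, 24.6 to 27.8%). Nuclei of the epilepsy library were shallower, with a median of 2567 UMIs in epilepsy and 3575 UMIs in control pyramidal-like nuclei. With each nucleus thinned to 1000 UMIs, the shares were 5.75% in epilepsy (127 of 2208 nuclei, 130 left out as shallower) and 10.4% in control (286 of 2749, 89 left out). Oligodendrocyte-like nuclei served as the background class, whose UMIs of these genes combine free RNA and their own transcription. They held a UMI of the genes in 3.54% of epilepsy nuclei (11 of 311, median depth 615 UMIs) and in 6.73% of control nuclei (15 of 223, median depth 844 UMIs). At 1000 UMIs these background shares were 3.77% in epilepsy (2 of 53) and 5.48% in control (4 of 73). Their intervals (0.460 to 13.0% and 1.51 to 13.4%) include the pyramidal-like shares, so a share above background was not detectable at that depth. On the summed level, pyramidal-like over oligodendrocyte-like nuclei had a log2 ratio of 0.85 (-0.01 to 1.86) in epilepsy and 1.27 (0.60 to 2.03) in control.

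The order of the libraries in the share of nuclei was the same at full and at equal depth for 9 of the 10 genes. It turned for Jun, at 0.171% of epilepsy and 0.423% of control nuclei with all UMIs and 0.136% and 0.0728% (3 and 2 nuclei) after thinning to 1000 UMIs. Junb had a UMI in 7.10% of epilepsy and 15.5% of control pyramidal-like nuclei, and in 2.76% and 5.64% after thinning to 1000 UMIs. Fos had a UMI in 1.54% of epilepsy and 4.58% of control nuclei, and in 0.634% and 1.38% after thinning. Egr1 had a UMI in 2.10% of epilepsy and 6.52% of control nuclei, and in 1.22% and 2.18% after thinning. Egr3 had a UMI in 1.88% of epilepsy and 4.55% of control nuclei, and in 0.589% and 1.42% after thinning.

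Nuclei with several of the genes were also fewer in epilepsy. At least 2 of the genes were found together in 33 epilepsy nuclei (1.41%) and in 196 control nuclei (6.91%), and after thinning to 1000 UMIs in 0.362% of epilepsy and 1.16% of control nuclei. At least 3 were found in 4 epilepsy nuclei (0.171%) and in 51 control nuclei (1.80%), and after thinning to 1000 UMIs in 0 epilepsy and 2 control nuclei. The most in 1 nucleus was 3 genes in epilepsy and 5 in control. Each nucleus with any of these transcripts held 1.22 such UMIs on average in epilepsy and 1.69 in control. The gap was smaller at equal depth, at 1.13 and 1.19 after thinning to 1000 UMIs and 1.17 and 1.44 at 2000 UMIs. With all UMIs, the 1% of nuclei with the most held 17.2% of these UMIs in epilepsy and 14.1% in control.

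**Figure D2:**
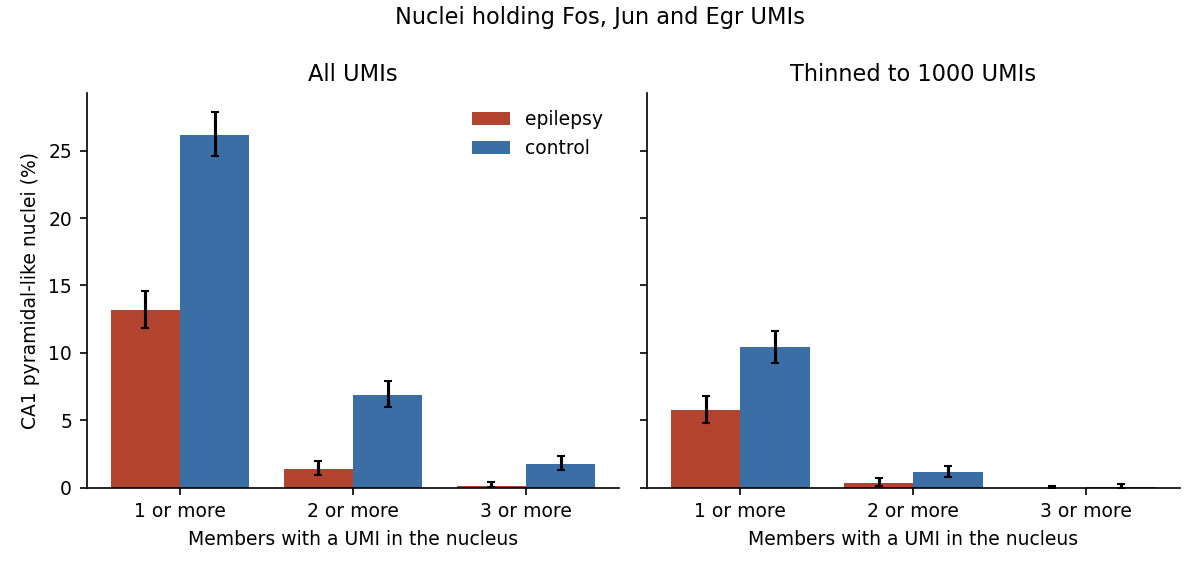
Share of CA1 pyramidal-like nuclei with a UMI of at least 1, 2 or 3 of the 10 genes in the epilepsy (red, left) and control (blue, right) libraries, with all UMIs (left panel) and with every nucleus thinned to 1000 UMIs (right panel); bars start at 0 and lines are exact 95% binomial intervals. For 1 or more genes the bars stand at 13.2% in epilepsy and 26.2% in control with all UMIs, and at 5.75% and 10.4% after thinning.

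Most pairs of these genes that could be judged were found in the same pyramidal-like nuclei more often than expected. Of 24 pairs in control with an expected count of at least 1, 22 were above it, and of 4 such pairs in epilepsy, 4 were. In the control library, Fos and Egr1 shared 28 nuclei where 9.04 were expected if the genes were independent among nuclei of similar depth (10 equal bins). Fos and Junb shared 63 nuclei, against 22.5 expected. Junb and Egr3 shared 52 against 22.4, and Junb and Egr4 shared 13 against 4.12. Junb and Egr1 shared 55 against 30.4, and Egr1 and Egr3, at 13 against 8.95, were closer to independence. The 2 pairs not above it both hold Jund, which shared 2 nuclei with Junb against 3.15 expected and 1 with Egr1 against 1.23. Other Jund pairs in control had expected counts under 1. Jund shared 3 nuclei with Fos against 0.920 expected, 2 with Egr3 against 0.857, and 0 with each remaining gene. In the epilepsy library fewer nuclei were shared, with 9 for Fos and Junb against 2.88 expected, 10 for Junb and Egr3 against 3.50, 6 for Junb and Egr1 against 3.59, 1 for Fos and Egr1 against 0.817, and 0 for Junb and Jund against 0.992. These are counts over nuclei of 1 library each and carry no test.

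Many other activity genes had higher levels in the nuclei that held the Fos, Jun and Egr transcripts. Npas4, a neuron-specific activity-induced factor, stood at 24.0 CPM in epilepsy nuclei with such a transcript and 9.81 CPM in those without (log2 ratio 1.29, 0.46 to 2.07), and at 67.6 and 17 CPM in control nuclei with and without (1.99, 1.65 to 2.34). Nr4a2, an orphan nuclear receptor, was higher with such a transcript by log2 1.24 in epilepsy and 1.89 in control. Nr4a2 is also on the fixed list of deep sublayer markers. Nuclei with such a transcript made up 19.3% of deep-like and 7.82% of superficial-like nuclei in epilepsy, and 37.7% and 19.0% in control. The part of the mix of subclusters in these differences was not tested. Arc, a synaptic plasticity gene, was higher by 0.94 in epilepsy and 1.47 in control. Tiparp, which encodes an ADP-ribosyltransferase, was higher by 1.61 in epilepsy and 1.48 in control. Of 26 such genes with at least 50 UMIs in each library, 24 in epilepsy and 23 in control were higher in nuclei with a transcript, against 44.4% of 8514 genes with as many UMIs in epilepsy and 44.7% of 9723 in control. The interval lay above 0 for 12 in epilepsy, against 3.44% of those genes, and for 21 in control, against 4.94%. For the other 14 in epilepsy the interval included 0. Nuclei with a transcript were also somewhat deeper, with medians of 2718 and 2537 UMIs with and without in epilepsy and of 3773 and 3497 UMIs in control. The clock gene Per2 was near 0 in both libraries (0.10 in epilepsy and -0.24 in control), as was Klf10 (0.14 and -0.01). Inhba had the lowest value of these genes in epilepsy, with an interval that included 0 (-1.09, -2.44 to 0.02). In control it stood at -0.003 (-0.75 to 0.70). Within nuclei with a transcript, Npas4 was lower in epilepsy (log2 ratio of epilepsy to control -1.50, -2.24 to -0.83), as was Arc (-1.21, -1.66 to -0.79).

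**Figure D3:**
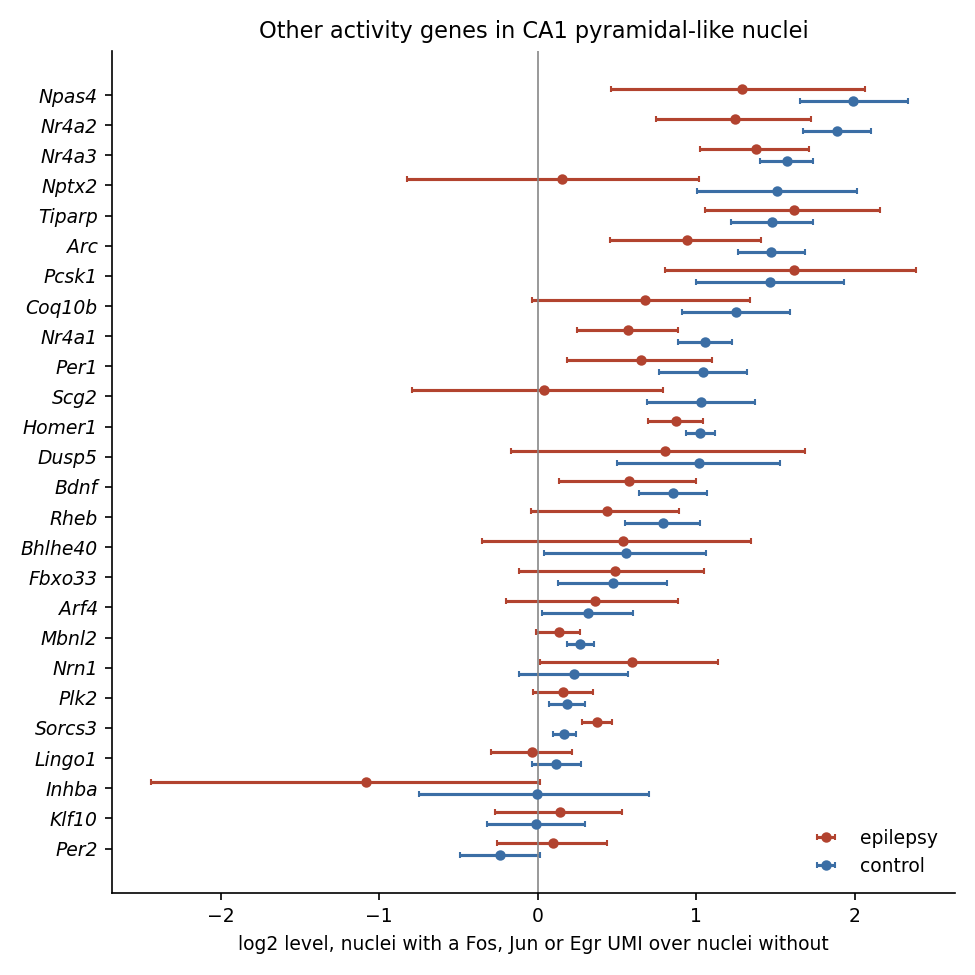
Log2 ratio of the level of 26 other activity genes in CA1 pyramidal-like nuclei with a Fos, Jun or Egr UMI over those without, in the epilepsy (red, upper point) and control (blue, lower point) libraries, with exact 95% intervals. Npas4 (1.29 in epilepsy and 1.99 in control) and Nr4a2 (1.24 and 1.89) lie far right of 0, and Per2 and Klf10 lie near it. The epilepsy point of Inhba lies left of 0 (-1.09), with an interval that includes 0.

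Among the pyramidal subclusters, the one named deep-like had a higher level of these genes than the one named superficial-like in both libraries. Deep-like nuclei (424 in epilepsy and 562 in control) and superficial-like nuclei (524 and 664) are 1 subcluster each, named from fixed sublayer markers such as Ndst4 and Calb1. The other 6 subclusters, with 1390 epilepsy and 1612 control nuclei, took neither name. Col11a1, Epha3 and Syt17 followed the names, but the deep markers Sox5 and Enpp2 went against them. In log2 against the other subclusters, these 2 stood at -0.9 and -1.12 in deep-like and at 0.7 and 0.76 in superficial-like nuclei. Grp, a superficial marker, was near 0 in both (-0.13 and 0.04). In epilepsy the summed level was 84.7 CPM in deep-like and 31.5 CPM in superficial-like nuclei (log2 deep over superficial 1.43, 0.91 to 1.97). In control it was 158 CPM in deep-like and 88.1 CPM in superficial-like nuclei (0.84, 0.60 to 1.09). The direction held in 12 of 12 alternative settings in both libraries, but with nuclei split at the median sublayer score the epilepsy value was 0.10 (-0.20 to 0.41). The subclusters with neither name did not follow the order of Ndst4 and Calb1. Subcluster 5 leaned to the superficial side on Ndst4 (log2 -0.98 against the other subclusters) and Calb1 (0.51) and had the highest level in each library. Its deep marker Col11a1 was also lower (-1.67), but so were the superficial markers Epha3 (-0.48), Syt17 (-0.43) and Grp (-0.12). Subcluster 6 leaned to the deep side on Ndst4 and Calb1 (0.71 and -1.45), though not on the deep marker Enpp2 (-1.29). At 48.1 CPM in epilepsy it was below subclusters 2 (60.9 CPM) and 3 (77.3 CPM), which leaned superficial on Ndst4 and Calb1. In control it stood at 144 CPM against their 98.0 and 115 CPM.

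Egr1 showed a large difference between the sublayers, at 13.4 CPM in deep-like and 2.74 CPM in superficial-like epilepsy nuclei (2.29, 0.64 to 4.34) and 36.4 and 8.50 CPM in control nuclei (2.10, 1.40 to 2.85). Fos stood at 8.92 CPM in deep-like and 4.10 CPM in superficial-like epilepsy nuclei (1.12, -0.48 to 2.86), and at 27.4 and 10.8 CPM in control nuclei (1.34, 0.67 to 2.05). Junb stood at 47.3 and 17.1 CPM in epilepsy (1.47, 0.75 to 2.21) and at 69.0 and 48.3 CPM in control (0.51, 0.16 to 0.87). For these 3 genes deep-like nuclei were higher in 12 of 12 alternative settings in each library. Egr3 differed from them, with 1.78 CPM in deep-like and 2.05 CPM in superficial-like epilepsy nuclei and 8.50 and 15.1 CPM in control nuclei (log2 -0.83, -1.72 to 0.01), and its direction turned in 4 of 12 alternative settings in control.

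**Figure D4:**
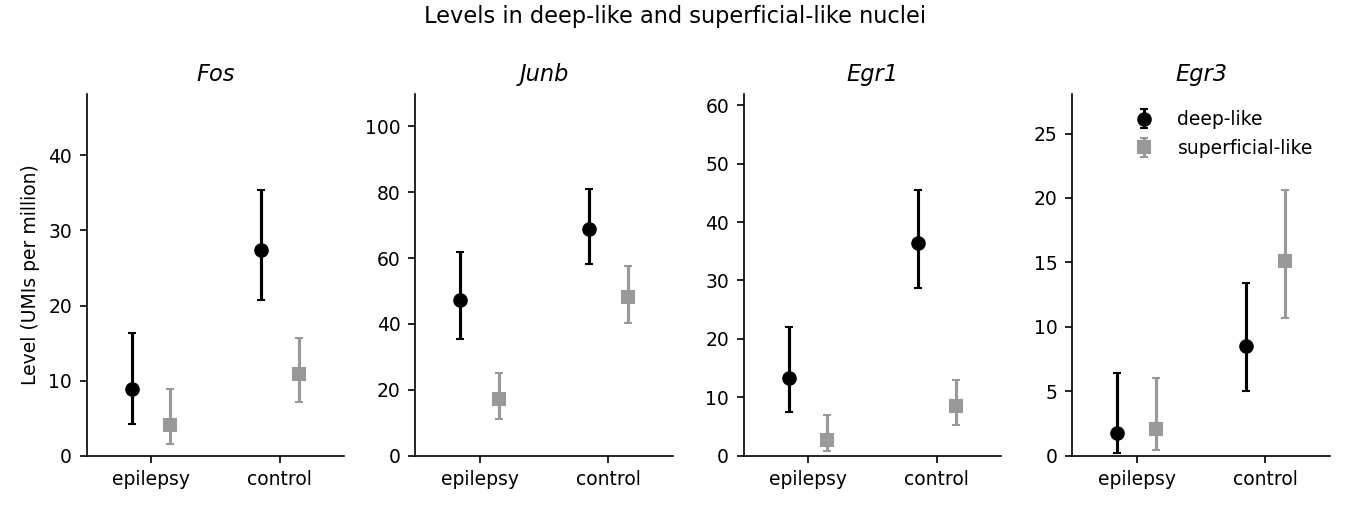
Levels of Fos, Junb, Egr1 and Egr3 in deep-like (black circles) and superficial-like (grey squares) nuclei of the epilepsy (left) and control (right) libraries, in CPM with exact 95% Poisson intervals; each panel has its own linear axis from 0. The deep-like point is above the superficial-like point in both libraries for Fos, Junb and Egr1, and below it for Egr3.

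Both sublayers were lower in epilepsy. In deep-like nuclei the log2 ratio of epilepsy to control was -0.90 (-1.25 to -0.57) for the summed genes, -1.62 (-2.75 to -0.64) for Fos, -0.55 (-1.03 to -0.08) for Junb, -1.44 (-2.35 to -0.63) for Egr1 and -2.25 (-5.41 to -0.19) for Egr3. In superficial-like nuclei it was -1.49 (-1.98 to -1.02) for the summed genes, -1.40 (-2.96 to -0.10) for Fos, -1.50 (-2.18 to -0.87) for Junb, -1.64 (-3.63 to -0.08) for Egr1 and -2.88 (-5.22 to -1.22) for Egr3. With at least 10 UMIs over both libraries, 3 of 5 genes were past 1.5-fold lower in deep-like nuclei, against 14.6% of 11064 genes, and 4 of 4 in superficial-like nuclei, against 11.3% of 11991 genes. The difference between the sublayers' ratios, superficial minus deep, was -0.58 (-1.15 to -0.02) for the summed genes and -0.95 (-1.72 to -0.19) for Junb. It depended on how the sublayers were drawn, since a split at the median sublayer score gave 0.38 for the summed genes and 0.30 for Junb, and clustering with the activity genes kept gave 0.33 for the summed genes.

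The lower level was found in nearly all finer clusters of the pyramidal class. The interval of the summed log2 ratio lay below 0 in 7 of 8 pyramidal subclusters. Fos, Junb and Egr1 were lower in epilepsy in 7 of the 7 subclusters where 3 counts in epilepsy lie below the control level, and Egr3 in 6 of 7. That limit uses the control level, which can lean the count toward lower in epilepsy. Of all genes with at least 10 UMIs, 53.0% were lower in epilepsy in deep-like and 46.6% in superficial-like nuclei. Subcluster 5 held the highest level among the subclusters of each library, at 99.3 CPM (76.9 to 126) in epilepsy and 223 CPM (190 to 258) in control, and in epilepsy its interval overlapped that of the deep-like subcluster, number 1 (84.7 CPM, 68.5 to 104). The superficial-like subcluster, number 0, had 31.5 CPM (23.0 to 42.0) in epilepsy and 88.1 CPM (77.0 to 100) in control. Subcluster 7 is the one left out of these counts. It had 0 UMIs of the genes in its 26 epilepsy nuclei, where 3 counts equal 115 CPM and the interval reaches 142 CPM. In control it had 155 CPM (92.1 to 246).

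**Figure D5:**
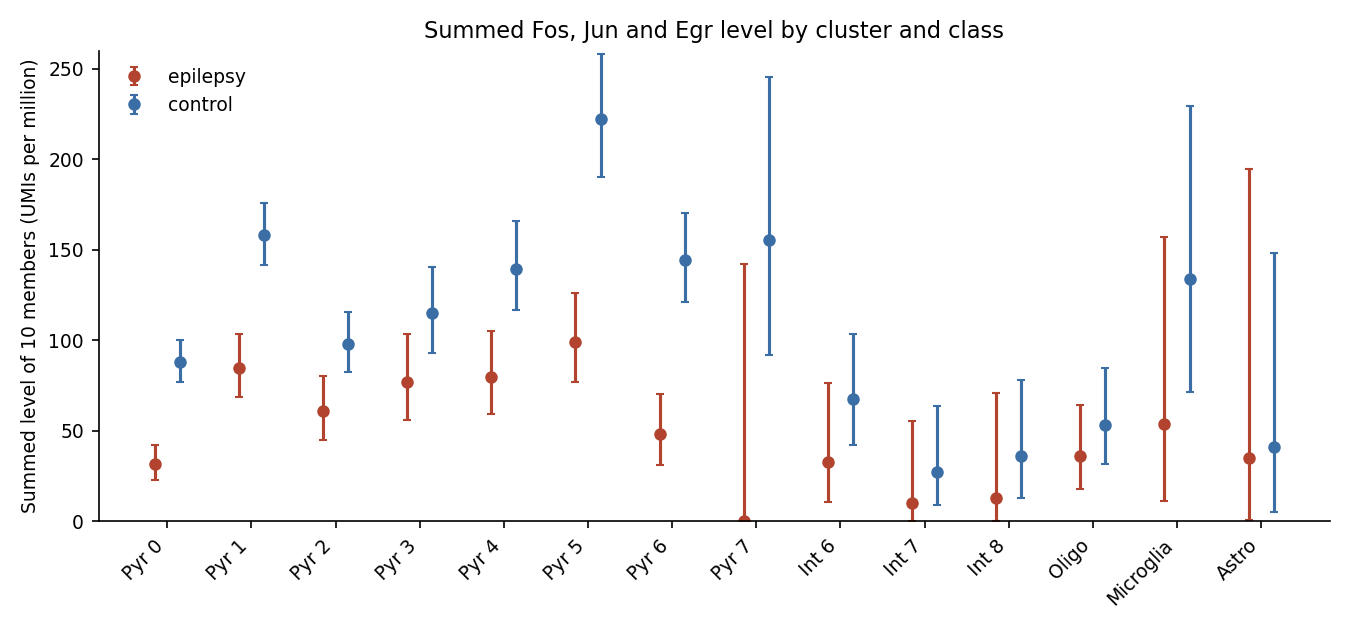
Summed level of the 10 genes, in CPM with exact 95% Poisson intervals, in 8 pyramidal subclusters (Pyr 0 is superficial-like and Pyr 1 deep-like), 3 interneuron clusters (Int) and 3 glial classes of the epilepsy (red, left) and control (blue, right) libraries. The epilepsy point is the lower one in every cluster and class drawn, but in Pyr 7 it rests on 0 UMIs and in Int 7 and Int 8 on 1 UMI each, and the intervals of interneuron and glial points are wide and overlap.

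Interneuron-like nuclei (144 in epilepsy and 197 in control) had lower levels of the summed genes than pyramidal-like nuclei. The summed level was 21.1 CPM in epilepsy from 7 UMIs and 48.5 CPM in control from 32 UMIs (log2 ratio -1.20, -2.63 to 0.00). Of the 3 interneuron clusters, 1 had enough UMIs to read a direction, number 6, at 32.8 CPM in epilepsy and 67.9 CPM in control, with an interval that included 0 (-1.05, -2.81 to 0.40). In clusters 7 and 8 the epilepsy library held 1 UMI each and 3 counts there (29.8 and 38.2 CPM) lie above the control levels (27.3 and 36.0 CPM). Pyramidal-like over interneuron-like nuclei, the log2 ratio of the summed level was 1.62 (0.56 to 2.94) in epilepsy and 1.41 (0.91 to 1.96) in control. Fos had 1 UMI (3.01 CPM) in epilepsy and 15 UMIs (22.8 CPM) in control interneuron-like nuclei, a log2 ratio of -2.92 (-8.31 to -0.22). In the control library the Fos level did not differ between pyramidal-like and interneuron-like nuclei beyond counting error (pyramidal over interneuron -0.39, -1.15 to 0.48).

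Egr1 and Egr3 were near the limit of detection in interneuron-like nuclei. Egr1 had 1 UMI in epilepsy and 2 UMIs in control, and in the control library pyramidal-like nuclei were higher by log2 2.80 (0.93 to 5.86). Egr3 had 0 UMIs in both libraries. The control pyramidal-like level (15.1 CPM) was 3.32-fold above a floor of 3 counts over the class (4.55 CPM). The interval of the log2 ratio of pyramidal-like over interneuron-like nuclei in control began at 1.42. The floor in epilepsy, 9.04 CPM, was above the pyramidal-like level there, so no difference was detectable. Junb had 3 UMIs (9.04 CPM) in epilepsy and 12 UMIs (18.2 CPM) in control, with pyramidal-like nuclei higher by 1.83 (0.26 to 4.12) in epilepsy and 1.77 (0.96 to 2.73) in control. Fosb had 0 and 2 UMIs, Fosl2 had 1 and 1, and Egr2 had 1 and 0, in epilepsy and control, while Jun, Jund and Egr4 had 0 in both. A UMI of any of the genes was present in 4.17% of epilepsy and 12.7% of control interneuron-like nuclei. At 1000 UMIs the shares were 2.21% (3 of 136, 0.457 to 6.31%) and 3.24% (6 of 185, 1.20 to 6.93%). These intervals overlap those of oligodendrocyte-like nuclei at that depth. Interneuron over oligodendrocyte in control, the summed level had a log2 ratio of -0.14 (-1.02 to 0.78). Fos was higher in interneuron-like nuclei there (15 UMIs against 1, log2 2.94, 0.24 to 8.33), and Jun was lower (0 UMIs against 4).

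Few UMIs of these genes were counted in glial nuclei, whose classes are small, and their levels were not all below the pyramidal-like level. Oligodendrocyte-like nuclei had 11 UMIs of the genes in epilepsy (36.0 CPM, 18 to 64.4) and 18 UMIs in control (53.5 CPM, 31.7 to 84.5), a log2 ratio of -0.57 (-1.80 to 0.59). Jun was relatively abundant there, with 2 UMIs (6.55 CPM) in epilepsy and 4 UMIs (11.9 CPM) in control. The log2 ratio of the Jun level in pyramidal-like over oligodendrocyte-like nuclei was -3.25 (-6.06 to 0.21) in epilepsy and -3.27 (-4.99 to -1.18) in control. So in control Jun was lower in pyramidal-like nuclei, unlike Junb (1.07, 0.18 to 2.13) and Fos (2.55, 0.05 to 7.86). The control interval of Egr1 included 0 (1.83, -0.04 to 4.89). Junb was also higher in pyramidal-like nuclei in epilepsy (2.29, 0.42 to 5.35). Egr1 stood at 9.10 CPM in pyramidal-like and 9.82 CPM in oligodendrocyte-like nuclei of epilepsy (-0.11, -1.74 to 2.21). The epilepsy intervals of Fos (-1.49 to 6.41) and Egr3 (-1.25 to 6.63) also included 0. A level above this background class was thus not detectable for Egr1, Fos and Egr3 in epilepsy.

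Microglia-like nuclei (38 in epilepsy and 35 in control) had 3 UMIs of the genes in epilepsy (53.8 CPM, 11.1 to 157) and 13 UMIs in control (134 CPM, 71.4 to 229), of which Junb gave 2 and 10. In control, 7 of the 13 UMIs (5 of them Junb) lay in 1 of the 35 nuclei, and in epilepsy 2 of the 3 (both Junb) in 1 of the 38, which the intervals do not take into account. Without those nuclei, an alternative chosen after seeing the data, the control level was 65.3 CPM (24.0 to 142) for the summed genes and 54.4 CPM (17.7 to 127) for Junb, and in epilepsy 1 UMI of the genes and 0 of Junb remained. Their Junb level was 35.9 CPM in epilepsy and 103 CPM in control. Set over the pyramidal-like level, it gave a log2 ratio of 0.16 (-2.90 to 2.03) in epilepsy and 0.73 (-0.34 to 1.62) in control. Astrocyte-like nuclei (32 in epilepsy and 31 in control) had 1 UMI of Jund in epilepsy and 2 UMIs of Junb in control, and 0 of the other genes. Ordered by level in control, Junb ran from microglia-like (103 CPM) over pyramidal-like (62.2 CPM) and oligodendrocyte-like (29.7 CPM) to interneuron-like nuclei (18.2 CPM). Without that 1 nucleus the microglia-like value (54.4 CPM) falls below the pyramidal-like one. Of these neighbours, pyramidal-like and oligodendrocyte-like nuclei differed beyond counting error, and neither the first pair nor the last did (interneuron over oligodendrocyte -0.71, -2.04 to 0.66).

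Other genes of the activity response in pyramidal-like nuclei were described through fixed lists, counting genes with at least 50 UMIs. Of all 11076 genes with as many UMIs, 5.01% were past 1.5-fold lower in epilepsy and 8.66% past 1.5-fold higher. Of 24 further immediate early genes, 11 were past 1.5-fold lower in epilepsy and 1 past 1.5-fold higher, with a median log2 ratio of -0.47. Npas4 had 11.8 CPM in epilepsy and 31.5 CPM in control (log2 ratio -1.41, -1.81 to -1.03). Nr4a2 had 30.9 and 75.3 CPM (-1.29, -1.53 to -1.05), and Btg2, an antiproliferative gene, had 2.06 and 13.1 CPM (-2.67, -3.66 to -1.81). The 1 gene past 1.5-fold higher, Klf10, a zinc-finger factor named after its value was seen, had 69.5 and 44.4 CPM (0.64, 0.45 to 0.84). Of 3 MAP kinase phosphatases, which switch that pathway off, 1 was past 1.5-fold lower, Dusp6 (6.52 CPM in epilepsy and 16.3 CPM in control, log2 ratio -1.32, -1.87 to -0.80), and the median was -0.53.

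Partners and upstream factors included genes on both sides of 0. The shares over all genes were 5.01% lower and 8.66% higher, so a few genes past the fold in lists this short are not read as a result. Of 8 AP-1 partners, 2 were past 1.5-fold lower and 2 past 1.5-fold higher, with a median of 0.13. Batf, which dimerises with Jun proteins, had 6.86 CPM in epilepsy and 1.34 CPM in control (2.36, 1.43 to 3.39), and Maf had 8.75 and 5.14 CPM (0.77, 0.18 to 1.36). Jdp2, a repressor of AP-1, was lower (-0.67, -0.95 to -0.39), as was Nfe2l1, a factor that pairs with small Maf proteins (-0.93, -1.49 to -0.40). Of 16 upstream transcription factors, 2 were past 1.5-fold lower, Mef2c (-0.59, -0.95 to -0.23) and Mef2b (-1.09, -2.20 to -0.09, named after its value was seen), and 0 higher, with a median of -0.07. Of 15 upstream kinases, 0 were past 1.5-fold in either direction, with a median of 0.08. Of the 2 Egr co-repressors of the Nab family, 0 were past 1.5-fold, and Nab1 had -0.50 (-0.84 to -0.17).

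Downstream genes also lay on both sides of 0. Of 13 activity-dependent effector genes, 3 were past 1.5-fold lower and 2 past 1.5-fold higher, with a median of -0.19. The shares over all genes with as many UMIs were 5.01% lower and 8.66% higher. Bdnf, a neurotrophin, had 49.9 CPM in epilepsy and 75.4 CPM in control (-0.59, -0.80 to -0.40), and Scg2 (-0.59) and Vgf (-0.88), named after their values were seen, were the other two lower genes. Inhba, an activin subunit, had 16.5 and 8.64 CPM (0.93, 0.49 to 1.37), and Baz1a, a chromatin remodelling subunit, had 7.89 and 2.06 CPM (1.94, 1.15 to 2.78). Of 9 genes reported as targets of the stable FosB isoform, 1 was past 1.5-fold lower, and that was Fos itself; Gria2, an AMPA receptor subunit, had a log2 ratio of -0.19 (-0.23 to -0.16). The pattern of the summed genes over 13 sums of a class in a library was most like that of Plppr2 (Pearson r 0.93), Pigk (0.92), Arpc3 (0.92), Fig4 (0.92) and Frrs1l (0.91) among 7921 genes, a description in which sums of 1 library share its depth.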

How the data were processed

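The deposited values are raw UMI counts per gene and nucleus, with no normalization by the authors (whole numbers throughout). Nuclei were profiled with 10x Genomics 3' v2 chemistry and 75 bp reads, per the labels' protocols. Per the submitters' processing notes, Cell Ranger 2.2.0 and FastQC were used with GRCm38 (mm10). Barcode selection, annotation and the counting of intronic reads are not given in the sources used here. 68 listed genes share a symbol with another, none of them described here.

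Groups come from the condition label. Filters of 200 detected genes and 5% mitochondrial UMIs removed 0 nuclei. Scrublet in scanpy 1.11.5 marked 3 epilepsy and 4 control nuclei (0.0975% and 0.109%), so the 3% with the highest score were removed (92 and 110). The 2000 most variable genes, without the 10 genes and 80 activity genes in all, were standardised within each library, reduced to 30 components and clustered with leidenalg 0.10.2 at resolution 1. Clusters took the class whose markers stood highest, with at least 3 markers at 20 CPM and 2-fold. A subcluster was named deep-like where Ndst4 was at least 2-fold higher than in the other pyramidal subclusters, Calb1 lower, and Col11a1, Sox5 or Enpp2 at least 1.25-fold higher. It was named superficial-like where Ndst4 was as far lower, Calb1 higher, and Epha3, Syt17 or Grp at least 1.25-fold higher. Class sums gave CPM, with Poisson, conditional binomial and Clopper-Pearson intervals. Differences between sublayers carry normal intervals on the log scale. A count of 0 was set against a floor of 3 counts. The ratio code was tested on simulated data.

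The rule was to name all 10 genes in each class with at least 30 nuclei per library, with up to 4 genes of each list whose interval bound nearest 0 lies farthest from it. Only some of the 10 are named for oligodendrocyte-like, microglia-like, deep-like and superficial-like nuclei. Genes named outside that rule are marked or stand in comparisons within nuclei. Not every gene that the rule names is reported here; list counts and medians include them all. The genes and lists were chosen with earlier results of these data known. TMM factors came from edgeR 4.0.16 on the deposited counts.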

Additional observations from a re-analysis of the deposited data

How the results depend on the processing

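No paired analysis was possible because each condition has 1 library. The summed log2 ratio in pyramidal-like nuclei was between -1.08 and -0.93 and below 0 in 12 of 12 alternatives, among them TMM factors, equal weight per nucleus, thinning, other clusterings, and, chosen after seeing the data, leaving out the pyramidal cluster with the fewest UMIs (-1.06) or the 3 nuclei per library richest in these genes (-1.02). Fos was between -1.47 and -1.04, Junb between -1.05 and -0.95, Egr1 between -1.38 and -0.85, Egr2 between -2.76 and -1.27 and Egr3 between -1.27 and -0.82, each below 0 in 12 of 12, and the median over genes was between -1.22 and -0.93 in 15. The count of genes past the fold was 4, but 2 at a 2-fold limit and 8 with a minimum of 10 UMIs (added after seeing the data). The log2 ratio of the share of nuclei with a gene, below 0 in 11 of 11, was -0.75 at 2000 UMIs and -2.19 for at least 2 UMIs, and that with 2 or more genes was -1.68 at 1000 UMIs.

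The sublayer contrast was less stable, and the cause was not tested. Deep over superficial, the summed level had a log2 ratio of 0.89 in epilepsy and 1.22 in control with activity genes kept in the clustering, 0.74 in epilepsy at resolution 0.5, 0.70 in epilepsy and 0.55 in control with doublets kept, and 0.10 in epilepsy and 0.49 in control with a split at the median score. The difference between the sublayers' ratios reversed to 0.33 with activity genes kept and to 0.38 with that split, where Junb alone reversed to 0.30. Counts of 3 or fewer limit most statements on glia and interneurons.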

Other observations

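Classes with under 30 nuclei in a library are given as values only. CA2/CA3 pyramidal-like nuclei had 6 UMIs of the 10 genes in 52 epilepsy nuclei (33.1 CPM, 12.2 to 72.1) and 4 UMIs in 17 control nuclei (54.4 CPM, 14.8 to 139). Dentate granule-like nuclei had 1 UMI in 14 epilepsy nuclei and 19 UMIs in 153 control nuclei (63.1 CPM, 38 to 98.5). Subiculum-like nuclei had 0 UMIs in 13 epilepsy nuclei and 8 UMIs in 25 control nuclei (114 CPM, 49.4 to 225). Committed oligodendrocyte precursor-like nuclei had 0 UMIs in 38 epilepsy nuclei and 2 UMIs in 24 control nuclei, and Cajal-Retzius-like nuclei had 0 UMIs in 6 epilepsy and 8 control nuclei.

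Within pyramidal-like nuclei that held no Fos, Jun or Egr UMI, Npas4 still had a log2 ratio of epilepsy to control of -0.79 (-1.30 to -0.30), Arc of -0.68 (-0.96 to -0.40), Nr4a3, an orphan nuclear receptor, of -0.71 (-0.94 to -0.49) and Dusp6 of -1.14 (-1.75 to -0.56). Klf10 had 0.62 (0.39 to 0.85) in the same nuclei and Sorcs3, a sorting receptor, 0.50 (0.45 to 0.56). These genes were chosen after their values were seen.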
